A study of Mus musculus with 6 samples.

Results

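The 10 genes described here encode the mGluR6 signalling cascade of retinal ON bipolar cells and proteins that mark rod bipolar cells. They are Grm6, Trpm1, Nyx, Gpr179, Lrit3, Gnao1, Gng13, Pcp2, Prkca and Cabp5, chosen by name from the 22731 gene symbols of a table of mouse retinal RNA sequencing. All 10 were in the table, and all 10 were among the 12599 tested genes, whose RPKM (read density corrected for gene model length and sequencing depth) averaged 1 or more over the 6 libraries. The libraries compare retinas that lack the microRNA-processing enzyme Dicer1 in rod photoreceptors (conditional knockout, cKO) with retinas of control littermates. Both groups were Dicerfl/fl on a mixed C57BL/6J and SJL background and 4 weeks old, and differed in the transgene, which was iCre75+ in cKO and iCre75- in control mice. The iCre75 transgene drives Cre recombinase from a rhodopsin promoter, so bipolar cells themselves kept their floxed Dicer1 alleles. Each group had 3 libraries, cKO replicates 2, 3 and 4 and control replicates 1, 2 and 3, and each library was poly(A) RNA pooled from 4 mice. Retinas were taken in the morning.

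In darkness photoreceptors release glutamate, which acts on mGluR6 at the dendritic tips of ON bipolar cells. The receptor works through the G protein Go to hold the cation channel TRPM1 shut, and when light lowers glutamate release the channel opens and the cell depolarises. Loss of GRM6, TRPM1, NYX, GPR179 or LRIT3 causes complete congenital stationary night blindness in humans. Rods pass their signal to a dedicated rod bipolar cell, so this cascade is the next step downstream of the cell type that lost Dicer1.

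The main sequences that bear on these genes and on Dicer1 are shown first. Trpm1 is the host of miR-211, whose hairpin lies inside the gene on the same strand (mature miR-211-5p at chr7:64205831-64205852, plus strand, GRCm38.p6). Its close relative miR-204-5p lies inside the paralog Trpm3 (chr19:22750610-22750631, plus strand). The capitals mark the seed, bases 2 to 8, which both share, and the mature forms differ at 1 position.
miR-211-5p: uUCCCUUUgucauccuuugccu
miR-204-5p: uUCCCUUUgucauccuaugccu
The precursor loci gave almost no reads in this poly(A) RNA. Mir211 had 0, 1 and 0 reads in cKO replicates 2, 3 and 4 and 0, 3 and 0 in control replicates 1, 2 and 3, and Mir204 had 0, 0 and 0 and 0, 1 and 3. Mature microRNAs were not measured, so these counts describe only reads that fell on the hairpin loci.

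The 250 bases upstream of a RefSeq start site (GRCm38.p6) were searched for TAATCC, the core bound by the photoreceptor and bipolar homeodomain factors CRX and OTX2, and for TAATTA, a general homeodomain core. Both were searched on both strands, and neighbouring copies can share end letters. TAATCC was in 6.25% of 32851 such windows of all genes, and 2 or more copies in 0.295%. Of the 10 genes, which had 15 such windows, Cabp5 and Trpm1 held it in at least 1 window. The percentages here are of windows and the member counts are of genes, so they are not on the same footing. Cabp5 (chr7:13397905-13398154, plus strand) held 2 copies, whose first bases lie 160 and 41 bases before the start site, and Trpm1 (chr7:64153585-64153834, plus strand, the first of its 2 start sites) held 1 on the minus strand, at 34 bases before it. Grm6 (chr11:50850435-50850684, plus strand), which had the largest difference between groups of the 10, is shown for comparison and held neither. TAATTA was in 4.84% of all windows and in 1 of the 10 genes, Pcp2, at 1 of its 4 start sites. Capitals mark TAATCC or its reverse complement.
Cabp5: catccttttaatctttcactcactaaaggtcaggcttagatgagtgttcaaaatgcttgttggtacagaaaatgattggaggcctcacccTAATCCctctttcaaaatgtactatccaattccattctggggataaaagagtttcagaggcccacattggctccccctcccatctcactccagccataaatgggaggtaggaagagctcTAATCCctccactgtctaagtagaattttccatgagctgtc
Trpm1: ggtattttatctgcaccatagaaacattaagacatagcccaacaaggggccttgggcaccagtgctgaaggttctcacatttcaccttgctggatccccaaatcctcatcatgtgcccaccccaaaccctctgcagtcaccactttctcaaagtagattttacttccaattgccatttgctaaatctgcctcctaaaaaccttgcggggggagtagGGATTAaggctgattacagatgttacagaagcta
Grm6: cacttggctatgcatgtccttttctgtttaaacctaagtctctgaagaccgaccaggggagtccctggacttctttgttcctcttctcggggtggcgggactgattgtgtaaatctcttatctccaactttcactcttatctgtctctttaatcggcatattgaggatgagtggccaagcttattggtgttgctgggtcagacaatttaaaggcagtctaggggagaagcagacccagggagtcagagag
These matches describe letters in the windows. Binding was not measured.

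Depth was uneven. Whole reads worked back from the RPKM steps gave between 12331784 reads in genes (cKO replicate 4) and 32919736 (control replicate 3) per library, and the 10 genes had between 283 and 14919 reads each per library. Dicer1 was at 8.02, 7.06 and 7.90 RPKM in cKO replicates 2, 3 and 4 and 8.48, 8.77 and 8.33 RPKM in control replicates 1, 2 and 3. All its cKO values lay lower, as for 728 of the 12599 tested genes (limma adjusted p = 0.931). Its gene-level value also counts cells that keep the gene, bipolar cells among them. Reads over the floxed part alone were not available, so the value does not measure the deletion. Defining genes of bipolar cells were present in every library, with the summed level of 7 bipolar markers between 239 and 286 RPKM in cKO and between 229 and 246 RPKM in control retinas. These markers were Grm6, Trpm1, Pcp2, Cabp5, Grik1, Scgn and Vsx1. The first named, Grm6 to Cabp5, are members of the 10 genes, so the sum is not independent of them. The retina is a mixture of cell types, so fewer cells of a type and less RNA per cell cannot be told apart in these values.

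**Figure D1:**
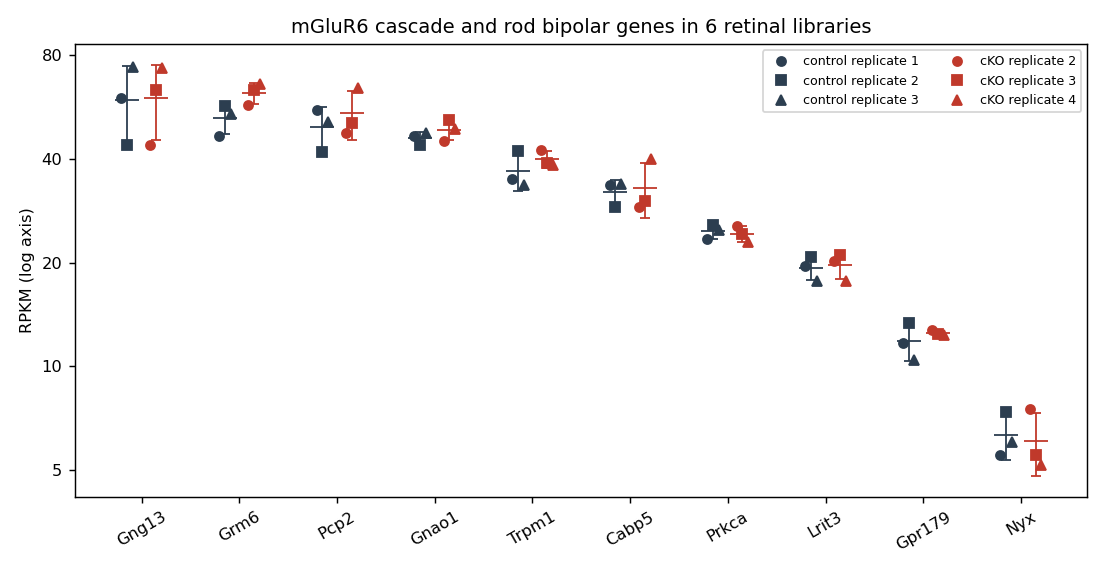
RPKM (log axis) of the 10 genes in each library, ordered by their mean, with control libraries in dark blue and cKO libraries in red. Horizontal bars are group means and error bars the SD over 3 libraries. The groups overlap for every gene other than Grm6, whose cKO values lie between 57.5 and 66.2 RPKM and its control values between 46.6 and 57.2 RPKM.

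The genes of the cascade stood at similar mean levels in cKO and control retinas, between 96.1% (Nyx) and 119% (Grm6) of the control mean. None of the 10 passed an adjusted p of 0.05 in limma, where 0.00794% of all tested genes (1 gene) did. The limma adjusted p of the 10 lay between 0.874 and 0.997, and 0 of them had an unadjusted limma p under 0.05, beside 5.71% of all tested genes. Voom on the recovered reads also called 0 of the 10, with 1, Grm6, at an unadjusted p under 0.05. Of the 12599 genes tested in voom, 282 were under that p with higher values in cKO and 489 with lower ones. A higher mean log2 value in cKO was measured for 8 of the 10 and a lower one for 2, beside 48.4% higher over all tested genes. The median log2 fold change of the 10 was 0.05, against -0.005 over all genes tested. The count of 8 fell to 7 without cKO replicate 2, cKO replicate 4 or control replicate 3, and to 6 without cKO replicate 3. It was 6 in voom and 9 after a correction for gene length. In the limma fit of all 6 libraries, the 95% interval of the fold change ran from 0.861 to 1.12 for Prkca, the narrowest. That of Gng13, the widest, ran from 0.701 to 1.47. A change of 1.5-fold lay outside each of these 10 intervals, for Gng13 only just. The intervals rest on variances that limma draws toward those of other genes. They hold for RNA of the whole retina and do not bound a change within a single cell type.

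**Figure D2:**
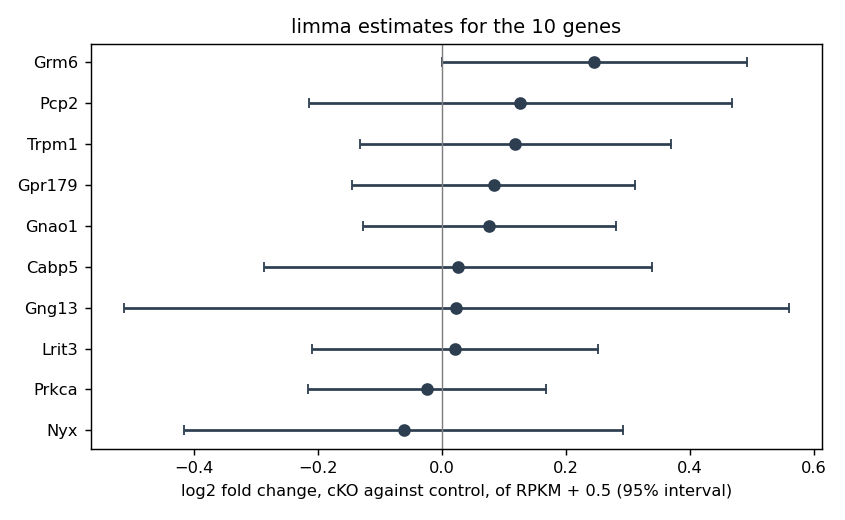
limma log2 fold changes of the 10 genes, cKO against control, on the log2(RPKM + 0.5) scale, with bars for the 95% interval. Every interval includes 0, and that of Grm6, from -0.00 to 0.49, only just does.

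Grm6 encodes the metabotropic glutamate receptor mGluR6, the glutamate sensor of the ON pathway, and had the largest difference of the set. It was at 57.5, 63.3 and 66.2 RPKM in cKO replicates 2, 3 and 4 and at 46.6, 57.2 and 54.0 RPKM in control replicates 1, 2 and 3. All cKO values lay above all control values, which held for 1 of the 10 genes, beside 11.7% of all tested genes in either direction and 5.91% in this one. The gap was narrow. The lowest cKO library and the highest control library differed by less than counting error, with exact 95% Poisson intervals from 56.1 to 59.0 RPKM and from 56.1 to 58.3 RPKM, which cover counting error only. The mean was 62.4 ± 4.41 RPKM in cKO and 52.6 ± 5.41 RPKM in control retinas (SD over 3 libraries each). The difference on the log2 scale was 0.25 ± 0.11 (SE), with an unadjusted limma p of 0.0502 and a limma adjusted p of 0.874. An exact permutation test (two-sided) gave p = 0.1, and no smaller value is possible with 3 libraries a group. Without control replicate 1, the lowest library, this difference was 0.16, and leaving out control replicate 2 gave 0.31. With the replicates numbered 2 and 3 alone it was 0.12. After a correction for gene length, and in voom on recovered reads, the groups of Grm6 overlapped. In both, its unadjusted limma p was under 0.05. So it was with no filter on low values and with median-of-ratios or trimmed mean scaling. The same held without cKO replicate 2 or control replicate 2, while in the other alternatives the p was above 0.05.

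Trpm1 encodes the cation channel that mGluR6 closes. Its level was 42.6, 38.9 and 38.5 RPKM in the cKO libraries and 35.0, 42.4 and 33.6 RPKM in the controls, so control replicate 2 lay among the cKO values and the groups overlapped. The log2 difference between groups was 0.12 ± 0.11 (SE, limma adjusted p = 0.991). Without control replicate 2 all cKO values lay above the remaining control values, as in 9.52% of all tested genes in that setting, and the log2 fold change was 0.22, while without control replicate 3 it was 0.05. Grm6 was at 1.57 ± 0.192 times the RPKM of Trpm1 in cKO and 1.43 ± 0.154 times in control retinas (SD of the ratio, n = 3 each), and the single ratios overlapped, from 1.33 to 1.72. 

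Gpr179, Nyx and Lrit3 encode proteins needed to place the complex at the dendritic tip. GPR179 is an orphan receptor that anchors the RGS proteins, and nyctalopin (Nyx) and LRIT3 are leucine-rich repeat proteins needed for TRPM1 at the synapse. Gpr179 was at 12.8, 12.5 and 12.4 RPKM in cKO and 11.7, 13.4 and 10.5 RPKM in control retinas. Its cKO values lay within the range of the controls, and its log2 difference was 0.08 ± 0.10 (SE, limma adjusted p = 0.997). Leaving out control replicate 2 gave 0.17, with all cKO values above the remaining controls, as in 9.52% of all tested genes in that setting. Leaving out control replicate 3 gave 0.00. The ratio of Trpm1 to Gpr179 lay between 2.98 and 3.34 in the 6 libraries, among the steadiest of a few chosen gene pairs. Not all pairs of the 10 genes were compared.

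Nyx, on the X chromosome, was the lowest of the 10, at 7.52, 5.52 and 5.17 RPKM in cKO and 5.53, 7.38 and 6.05 RPKM in controls. The replicates numbered 2 were the highest library of each group. The log2 fold change of -0.06 ± 0.15 (SE, limma adjusted p = 0.997) changed sign without cKO replicate 4 (0.04) or control replicate 2 (0.05). Without cKO replicate 2 it was -0.21, and the remaining cKO values lay below all controls, by a very narrow gap (5.524 against 5.526 RPKM). In that setting 21.7% of all tested genes had groups that did not overlap, in either direction. Lrit3 was at 20.3, 21.1 and 17.7 RPKM in cKO and 19.6, 20.8 and 17.7 RPKM in controls, nearly the same values in the same spread. Which retinal cells, rods or bipolar cells among them, gave the Lrit3 reads was not measured. The difference in log2 was 0.02 ± 0.10 (SE, limma adjusted p = 0.997), and its sign turned without cKO replicate 2 (-0.001), cKO replicate 3 (-0.03) or control replicate 3 (-0.04).

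Gnao1 and Gng13 encode G protein subunits of the cascade, the alpha subunit of Go and the gamma 13 subunit. Gnao1 is also expressed widely in other neurons, so most retinal cell types can add to its level. It was at 45.2, 51.9 and 49.0 RPKM in cKO and 46.6, 44.0 and 47.6 RPKM in control retinas, with a log2 difference of 0.08 ± 0.09 (SE, limma adjusted p = 0.997). Without cKO replicate 2 the groups no longer overlapped, with the cKO values higher, as in 11.4% of all tested genes in that setting, and the log2 fold change was 0.13. Leaving out cKO replicate 3 gave 0.03 and leaving out control replicate 2 gave 0.04. With median-of-ratios or trimmed mean scaling the groups of Gnao1 did not overlap either, with a log2 fold change of 0.08 in both, beside 5.92% and 5.95% of all tested genes.

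Gng13 had the highest mean RPKM of the set over the 6 libraries, though it lay above Grm6 in 4 of 6, and the widest spread. It was at 44.0, 63.5 and 73.4 RPKM in cKO and 60.2, 43.9 and 73.9 RPKM in control retinas, a 1.69-fold range over the 6 libraries. The lowest cKO and the lowest control library were almost equal, as were the highest of each group. The log2 difference between groups was 0.02 ± 0.23 (SE, limma adjusted p = 0.997). It had the other sign without cKO replicate 3 (-0.03), cKO replicate 4 (-0.13) or control replicate 2 (-0.18), and reached 0.23 when cKO replicate 2 was left out and 0.20 when control replicate 3 was.

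Pcp2, Prkca and Cabp5 mark bipolar cells and take part in their signalling. PCP2 is a GoLoco protein that binds Go in ON bipolar cells, protein kinase C alpha (Prkca) is the standard marker of rod bipolar cells, and CABP5 is a calcium-binding protein of rod bipolar and some cone bipolar cells. Pcp2 was at 47.6, 50.9 and 64.4 RPKM in cKO and 55.7, 41.9 and 51.2 RPKM in controls. The groups overlapped, and the log2 fold change of 0.13 ± 0.15 (SE, limma adjusted p = 0.997) was -0.001 without cKO replicate 4, 0.01 without control replicate 2 and about 0.21 without cKO replicate 2 or control replicate 1.

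Prkca was at 25.6, 24.2 and 23.0 RPKM in cKO and 23.4, 25.7 and 25.0 RPKM in control retinas, the smallest spread of the set, with its highest library 1.12 times its lowest. Its log2 difference was -0.02 ± 0.08 (SE, limma adjusted p = 0.997), with the other sign without cKO replicate 4 (0.01) or control replicate 2 (0.005), and after the length correction (0.02). Cabp5 was at 29.0, 30.2 and 40.0 RPKM in cKO and 33.6, 29.0 and 33.9 RPKM in controls, where cKO replicate 4 stood highest. Its log2 difference was 0.03 ± 0.14 (SE, limma adjusted p = 0.997). Its sign turned without cKO replicate 4 (-0.12) or control replicate 2 (-0.04), and it was 0.11 without cKO replicate 2, 0.08 without cKO replicate 3, and 0.06 without control replicate 1 or 3.

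By mean RPKM over the 6 libraries the order was Gng13 (59.8), Grm6 (57.5), Pcp2 (52.0), Gnao1 (47.4), Trpm1 (38.5), Cabp5 (32.6), Prkca (24.5), Lrit3 (19.5), Gpr179 (12.2) and Nyx (6.20). Ranges overlapped between Gng13 and Grm6, Grm6 and Pcp2, Pcp2 and Gnao1, and Trpm1 and Cabp5. Gnao1 lay above Trpm1 in 6 of 6 libraries, and from Cabp5 down each gene lay above the next in 6 of 6 with ranges that did not overlap. These are levels per length, and they add up all cells that express each gene.

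The 10 genes did not vary together from library to library. The 3 with short gene models among the marker and G protein genes, Gng13 (414 bases), Pcp2 (625 bases) and Cabp5 (1745 bases), were at their lowest of each group in the replicates numbered 2. So was Gnao1, with a long model (7732 bases), by smaller deviations of -0.065 and -0.104. The median deviation of the 3 short genes from the mean of the 6 libraries, on the log2(RPKM + 0.5) scale, was -0.16 in cKO replicate 2 and -0.29 in control replicate 2, against 0.32 in cKO replicate 4. Nyx (3621 bases), Trpm1 (6835 bases), Gpr179 (9276 bases) and Lrit3 (1683 bases) ran the other way, with a median of 0.11 and 0.14 in the replicates numbered 2, -0.06 in cKO replicate 4 and -0.16 in control replicate 3. These groupings were made after the values were seen. The model lengths were worked back from the RPKM steps and not taken from an annotation.

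**Figure D3:**
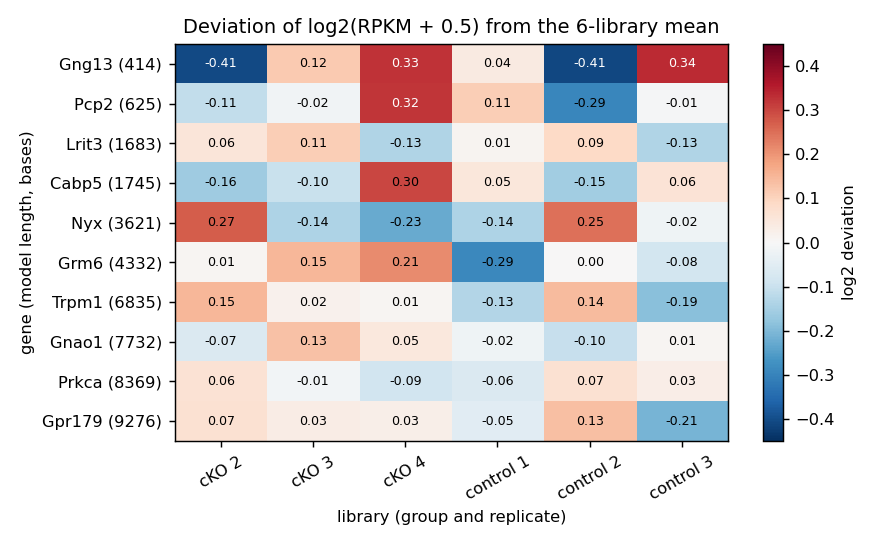
Deviation of log2(RPKM + 0.5) from the 6-library mean for the 10 genes (rows, from the shortest to the longest gene model) in each library (columns), with the value in each cell. Gng13 is 0.41 below its mean in cKO replicate 2 and in control replicate 2 and over 0.3 above it in cKO replicate 4 and control replicate 3.

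The same libraries differed by gene length over the whole table. The 1044 tested genes with models under 1000 bases had a median deviation of -0.23 in cKO replicate 2 and -0.17 in control replicate 2, and of 0.22 in cKO replicate 4 and 0.20 in control replicate 3. The 1428 tested genes over 6000 bases had median deviations between -0.06 and 0.06. After a smooth trend with length was removed from each library, the SD within groups of Gng13 went from 0.376 to 0.135 on the log2 scale, that of Pcp2 from 0.218 to 0.117 and that of Cabp5 from 0.197 to 0.119. The SD of Lrit3 went the other way, from 0.121 to 0.223, and 5 of the 10 genes had a smaller SD after the correction. The corrected log2 fold changes were 0.24 ± 0.10 (SE) for Grm6, 0.17 ± 0.09 for Pcp2, 0.15 ± 0.08 for Trpm1 and 0.14 ± 0.07 for Gpr179, and the median of the 10 was 0.10. None of the 10 passed then either, with limma adjusted p between 0.581 and 0.980.

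Other genes of the cascade, and the Lrit3 relatives Lrit1 and Lrit2, were read from the same fit and are called partners here. Of 9 partners, none passed the limma threshold of 0.05 in this fit. In mean log2 value 7 were higher and 2 lower, with a median log2 fold change of 0.05. Lrit1 (0.019) and Lrit2 (0.007) were among the 7. Gnb3, the beta subunit of the cascade that cones use as well, was at 277 ± 30.8 RPKM in cKO and 247 ± 31.9 RPKM in control retinas. Rgs11 and Rgs7 encode the GTPase activators that shut off Go. Rgs11 was at 56.9 ± 10.9 RPKM in cKO and 48.4 ± 5.17 RPKM in controls, and Rgs7 at 14.8 ± 3.05 and 14.2 ± 2.11 RPKM. Their obligate partner Gnb5, which rods also use, was at 279 ± 23.5 and 308 ± 34.3 RPKM.

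Rgs9bp encodes the membrane anchor R9AP, which binds RGS11 in ON bipolar cells and RGS9 in photoreceptors. Rgs9bp was at 259, 241 and 259 RPKM in cKO and 131, 141 and 141 RPKM in controls, the 1 partner whose groups did not overlap. The log2 fold change was 0.875 ± 0.089 (SE), with an unadjusted limma p of 1.1e-05 and a limma adjusted p of 0.0692. The partners were read in the main fit only, not in the alternatives. Which cells the difference came from was not measured. Rgs7bp, the anchor of RGS7, was at 5.52 ± 0.275 and 5.76 ± 0.0721 RPKM. Tpbg, a rod bipolar membrane protein, was at 10.4 ± 1.08 and 9.96 ± 0.916 RPKM. The LRIT3 relatives Lrit1 and Lrit2 had cKO means of 92.8 ± 1.77 and 79.7 ± 9.02 RPKM and control means of 91.6 ± 2.49 and 79.2 ± 6.92 RPKM.

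On the photoreceptor side of the synapse, 7 genes were listed and none passed, with 7 higher, 0 lower, a median log2 fold change of 0.07 and 2 whose cKO values all lay above the controls. Over all tested genes 48.4% were higher and 5.91% had all cKO values above the controls, and the counts of the other lists stand beside the same shares. Elfn1 encodes the adhesion protein through which rods bind mGluR6 across the cleft. It was at 76.9, 68.8 and 69.0 RPKM in cKO and 58.0, 58.1 and 53.1 RPKM in control retinas, so all cKO values lay above all controls. Its log2 fold change was 0.34 ± 0.09 (SE) with an unadjusted limma p of 0.00564 and a limma adjusted p of 0.701. Cabp4, a calcium-binding protein of photoreceptor terminals and the most abundant of this list, was at 118 ± 15.2 and 112 ± 9.39 RPKM.

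**Figure D4:**
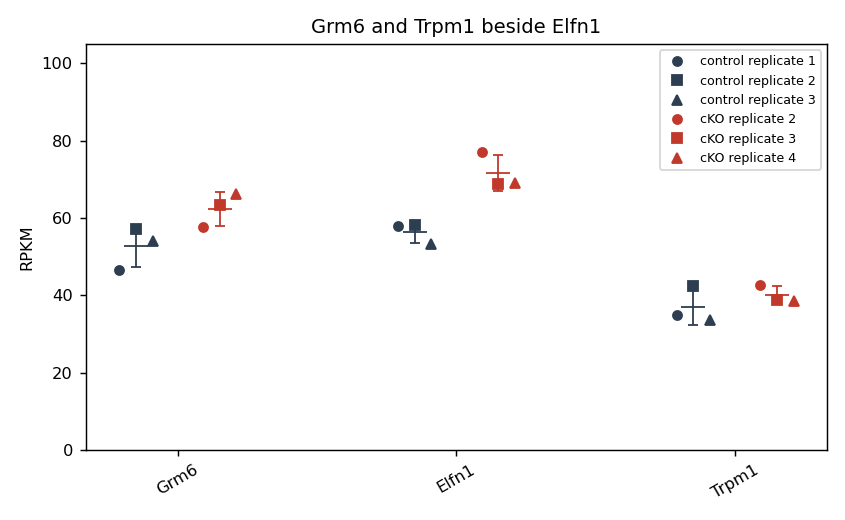
RPKM of Grm6, Elfn1 and Trpm1 in each library, with control libraries in dark blue and cKO libraries in red. Horizontal bars are means and error bars the SD over 3 libraries. The cKO values of Grm6 and Elfn1 lie above the controls, by a narrow gap for Grm6, and those of Trpm1 overlap with them.

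Of 13 transcription factors of bipolar cells none passed, 10 were higher and 3 lower, and the median log2 fold change was 0.08. Irx5 had the smallest p among the higher ones and was the 1 gene of this list whose groups did not overlap. It was at 4.80, 4.57 and 4.79 RPKM in cKO and 4.12, 3.90 and 3.21 RPKM in control retinas, with a log2 difference of 0.31 ± 0.10 (SE, limma adjusted p = 0.848). Otx2, a factor of photoreceptors and bipolar cells and the most abundant of the list, was at 86.0 ± 10.1 and 84.3 ± 7.26 RPKM. Neurod4 had the smallest p among the lower ones, at 24.6 ± 1.63 and 25.1 ± 2.16 RPKM.

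Genes of the same or neighbouring bipolar types outside the cascade went both ways. Of 7 other rod bipolar genes none passed, with 4 higher and 3 lower and a median log2 fold change of 0.007. Vstm2b, the most abundant, was at 54.4 ± 8.66 and 51.2 ± 7.29 RPKM in cKO and control, the GABA receptor subunit gene Gabrr2 at 49.7 ± 6.14 and 45.6 ± 3.73 RPKM, and Car8 at 7.50 ± 0.340 and 7.89 ± 0.667 RPKM. Of 9 cone bipolar genes tested of 10 listed, none passed, with 4 higher and 5 lower and a median of -0.02. Scgn was at 35.8 ± 7.35 and 37.2 ± 7.99 RPKM, Fezf2 at 5.97 ± 0.865 and 5.26 ± 0.324 RPKM, and the neurokinin receptor gene Tacr3, of OFF cone bipolar cells, at 5.12 ± 0.236 and 5.59 ± 0.106 RPKM.

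The closest paralogs of the members did not pass either. Among the other metabotropic glutamate receptors and TRPM channels 9 of 14 were tested, with 3 higher, 6 lower and a median log2 fold change of -0.04. Trpm3, the host of miR-204 and the most abundant of these, was at 9.54 ± 0.746 RPKM in cKO and 9.79 ± 0.600 RPKM in control retinas. Grm2 was at 9.12 ± 0.878 and 7.62 ± 0.795 RPKM (limma adjusted p = 0.871), and Grm8 at 6.11 ± 0.436 and 6.69 ± 0.362 RPKM. Among the G protein paralogs 16 of 17 were tested, with 9 higher, 7 lower and a median of 0.003. Gnat1, rod transducin, was at 6180 ± 461 and 6175 ± 595 RPKM, Gnaz at 72.3 ± 1.84 and 66.5 ± 2.65 RPKM, and Gng11 at 5.36 ± 0.615 and 7.12 ± 1.92 RPKM. Among the protein kinase C, CABP and calmodulin genes 12 of 13 were tested, with 9 higher, 3 lower and a median of 0.03. Calm3 was at 255 ± 29.3 and 247 ± 17.5 RPKM, Prkch at 2.62 ± 0.375 and 2.39 ± 0.118 RPKM, and Prkci at 10.5 ± 0.524 and 10.6 ± 0.0303 RPKM.

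Markers of other cell types were summed per library to show what else moved. None of these lists held a gene that passed. The rod list (6 markers) summed to between 19710 and 21790 RPKM in cKO and between 20870 and 24270 RPKM in controls, the cone list (6) to between 716 and 1014 and between 688 and 977 RPKM, and the Müller glia list (6) to between 745 and 800 and between 784 and 803 RPKM. The amacrine list (6) gave 201 to 222 and 197 to 209 RPKM and the ganglion cell list (6) 477 to 541 and 457 to 554 RPKM. The 5 horizontal cell markers gave 59.5 to 62.4 RPKM in cKO and 52.8 to 54.1 RPKM in control retinas, the 1 list whose sums did not overlap between groups. Slc4a3, at 39.1 ± 0.958 and 32.3 ± 0.905 RPKM, made up most of that gap. All 4 tested genes of this list were higher in mean log2 value, beside 48.4% of all tested genes. In 2 of them, Slc4a3 and Lhx1, all cKO values lay above the controls, beside 5.91% of all tested genes. Lhx1 was at 3.26 ± 0.0890 and 2.61 ± 0.203 RPKM, and Calb1 at 15.8 ± 2.28 and 15.7 ± 0.862 RPKM (log2 fold change 0.002). Onecut2 averaged under 1 RPKM and was not tested. Its mean was lower in cKO, at 0.258 ± 0.0234 against 0.285 ± 0.0401 RPKM. Lhx1, Calb1 and Onecut2 were named after their values were seen. The pigment epithelium list (6) gave 184 to 204 and 139 to 203 RPKM. The lens list (6) ranged from 165 to 1804 RPKM in cKO and from 264 to 2564 RPKM in controls. In no list was a marker at 0 in every library, and the part of these cell types in the values of Grm6 was not tested.

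The tested genes nearest to Grm6 in pattern over the 6 libraries, by the root mean square difference of centred log2 values, were Slco4a1 (0.0445), Tmem44 (0.0462) and Plod3 (0.0504), where the median over all genes was 0.202. For Trpm1 they were Rap2b (0.0195), Tenc1 (0.0310) and Bak1 (0.0341), with a median of 0.188. Gpr179 ranked 25 in nearness to Trpm1 (0.0490), and Gng13 ranked 12369 (0.415). Grm6 itself was at 0.150 from Trpm1.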

How the data were processed

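Poly(A) RNA of mouse retina was sequenced in 6 libraries, 3 cKO and 3 control, grouped by the titles in the labels. The authors deposited 1 table of RPKM values. The submitters' processing notes name the aligner GSNAP, the counter HTSeq and the build mm9. Versions, annotation, length model and the treatment of reads with several matches were not given in the sources used here, and strand was not kept per the labels' protocols, so antisense overlap cannot be told apart. Chromosomes and sequences come from GENCODE M21 and RefSeq on GRCm38, not the authors' build, and serve only to place genes.

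Whole reads were worked back from the RPKM steps, for 99.99% of 19140 genes above 0. The annotated lengths of single-transcript genes served to set the depth of each library. The model length of every gene was then worked back as the smallest that gave whole reads. It equalled the annotated length for 812 of 2853 single-transcript genes, and an annotated transcript length for 1 of the 10 members. The step gives the smallest read numbers that match, and a common multiple cannot be told apart. The test was limma 3.58.1 (R 4.3.3) on log2(RPKM + 0.5) with a variance trend, over the 12599 genes averaging 1 RPKM or more, two-sided with Benjamini-Hochberg adjustment at 0.05. Pairs of libraries within a group differed by more than sampling noise (chi-square per degree of freedom 9.65 to 30.3). With pools of 4 mice, p-values measure the spread between pools.

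The members and lists were chosen with earlier results of these data known. The genes named are all 10 members, every cascade partner, and in each other list the most abundant gene and the smallest p in each direction. A few listed genes are not reported here and were left out of the list counts. The alternatives were 2 pseudocounts, 2 filters, 2 scalings, voom on recovered reads, a length correction, each library left out, and a block on the replicates numbered 2 and 3.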

Additional observations from a re-analysis of the deposited data

How the results depend on the processing

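Over 16 alternatives none of the 160 fold changes of the 10 genes passed the threshold, and the lowest limma adjusted p was 0.533. The number of members past it stayed at 0. All genes past it were 1 as set out, 2 with a minimum of 5 RPKM, and 3 with no filter, median-of-ratios scaling, trimmed mean scaling, voom or the length correction. Leaving out single libraries gave 1 in each case. The number of members whose groups did not overlap was 1 as set out, 2 with either scaling, 0 with voom or the length correction, and between 1 and 3 without single libraries, beside 11.7%, 11.3%, 11.4%, 14.2% and between 15.2% and 29.5% of all tested genes. The median log2 fold change of the members lay between 0.046 and 0.093 without single libraries. Grm6, Trpm1, Gpr179 and Gnao1 kept their sign in all 16. Voom gave -0.0067 for Gng13 and -0.0066 for Cabp5, and the length correction 0.024 for Prkca. Of the fits without single libraries, sign changes gave Gng13 -0.175 to 0.233, Cabp5 -0.116 to 0.113, Pcp2 -0.00096 to 0.215, Lrit3 -0.040 to 0.093, Nyx -0.214 to 0.048 and Prkca -0.062 to 0.014. The cause of these changes was not tested. The labels give the replicates numbered 2 and 3 only a number in common, and do not say whether equal numbers share a batch. The correlation of deviations between cKO and control was 0.465 for number 2 and -0.052 for number 3. Crossed, it was -0.551 for cKO replicate 2 with control replicate 3 and -0.117 for cKO replicate 3 with control replicate 2. A shared batch was not tested. The replicate block on those 4 libraries, with 1 residual degree of freedom, called 192 genes, none of the 10, and gave -0.106 for Gng13, -0.084 for Cabp5 and 0.119 for Grm6 (0.246 with all libraries), as did the same libraries with no replicate block, which called 1 gene. Depth limits the shortest and lowest genes most, with 283 reads for Nyx in cKO replicate 4.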
